A study of Homo sapiens with 30 samples.

Results

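Mutation of the CTCF sites S4 and S5 together was compared with unedited (WT) cells for the chromatin contacts of the NOTCH1 promoter. The comparison held 4 of the series' 30 4C-seq libraries, chosen by their titles: 2 of the S4-S5 mutant and 2 of WT, all with the promoter as viewpoint. The cells were K562, an established human chronic myeloid leukaemia line. 4C-seq cuts and re-ligates cross-linked chromatin and counts which fragments were joined to 1 chosen fragment, so that the reads at a fragment end are a measure of how often that place met the viewpoint. The S4 mutant, the S5 mutant and the S2 mutant, with 2 promoter-viewpoint libraries each, served to place the double mutant, and its S2-viewpoint and S4-viewpoint libraries gave the same contacts read from the other end. The labels give the genotype of each library and no treatment or time course, and the same K562 culture and fixation protocol for all. The sources used here do not state the kind of mutation, whether a line was 1 clone, or the position of S5. The protocol speaks of independent libraries, without saying whether these came from separate cultures or templates. The p-values of the fits below therefore measure only the spread between the 2 libraries of a genotype, pooled over the genotypes. That spread may be technical.

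CTCF is a zinc-finger protein that binds a directional motif and halts the cohesin complex as it extrudes chromatin loops, and many loop anchors and domain boundaries carry its sites. A promoter inside such a domain meets DNA on its own side of a boundary more often than DNA beyond it. NOTCH1 encodes a cell-surface receptor whose cleaved intracellular part enters the nucleus and acts with a DNA-binding partner on target genes in blood cell development.

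The promoter viewpoint lay at chromosome 9, position 139443268 in hg19, the centre of its most covered 5-kb window (chr9:139440768-139445767). By the same measure the S2 viewpoint lay at 139385872, 57.4 kb towards the centromere, and the S4 viewpoint at 139523746, 80.5 kb towards the telomere. In the gene order of RefSeq, SEC16A is the neighbour of NOTCH1 on the centromeric side and EGFL7 the neighbour on the telomeric side. No hg19 annotation was used, so bins are given by position and not assigned to genes or exons. The promoter is printed here because the viewpoint is named for it. Contacts below were read from the viewpoint's fragment, which was not placed relative to the printed sequence. That sequence is the RefSeq window of NOTCH1 in GRCh38.p14, chr9:136545999-136546298 on the minus strand, a build whose coordinates are not those of the contact data. Its 300 bases are 77.0% G or C. Capitals mark both matches to AGGNGGC, a stretch of the core CTCF motif, at positions 159 and 171 from the 5′ end.
NOTCH1 promoter: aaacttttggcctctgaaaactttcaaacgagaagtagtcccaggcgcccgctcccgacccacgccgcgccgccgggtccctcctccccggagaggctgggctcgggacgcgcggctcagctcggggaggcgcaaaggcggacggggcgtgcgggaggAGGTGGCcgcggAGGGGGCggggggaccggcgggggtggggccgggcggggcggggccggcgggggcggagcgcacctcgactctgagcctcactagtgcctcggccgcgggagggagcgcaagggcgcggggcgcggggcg
Searched on both strands, AGGNGGC occurs in 35.9% of 35116 such RefSeq promoters, and a match describes letters only. The window holds no GATC, the site cut by DpnII, which 41.7% of promoters hold.

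The S4-S5 mutant libraries held 4528931 and 6260106 reads on chromosome 9, against 1437870 and 2314930 in WT. Reads within 5 kb of the viewpoint, where undigested and self-ligated fragments can fall, were masked, and their make-up was not tested. They were 88.6% and 88.1% of the mutant's reads and 77.8% and 77.3% of WT's. In the S4, S5 and S2 mutants they were 94.6% to 98.6%, so the double mutant's libraries differed from those of the other mutants as well. Within the mask, the fragment end at 139442069 took 87.0% and 86.5% in the mutant, against 62.1% and 61.4% in WT. A second masked end, 769 bp away at 139441300, took 0.124% and 0.142% in the mutant, against 14.3% and 14.4% in WT. In the other mutants that end took 0.0185% to 0.0357%, so the WT libraries stood apart from all 8 mutant libraries before any contact was counted. The part of these differences in the contrasts with WT, or with the other mutants, was not tested. For that reason the other mutants are given beside the double mutant at the main values.

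Outside the mask, the double mutant's promoter reads lay nearer to the promoter and more to its telomeric side than WT's. Near-cis reads, those 5 to 500 kb from the viewpoint, numbered 428041 and 616261 in the S4-S5 mutant and 212633 and 350347 in WT. In the libraries of the S4, S5 and S2 mutants near-cis reads numbered 64583 to 268826. Near-cis reads were 82.6% and 82.9% of all reads outside the mask in the S4-S5 mutant, against 66.7% and 66.7% in WT. The S4, S5 and S2 mutants averaged 83.0%, 85.6% and 84.0%, at or above the double mutant. The share within 50 kb was 53.5% and 53.8% in the mutant and 44.9% and 44.9% in WT. The S4, S5 and S2 mutants averaged 56.8%, 51.4% and 51.7%, all above WT. The difference between the S4-S5 mutant and WT of 8.73 percentage points was 1.86 when the mask was widened to 20 kb. Each of these values had no overlap between the mutant and WT, with the smallest p that an exact two-sided permutation test of 2 against 2 libraries allows, 0.333.

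The telomeric side set the double mutant apart from the other genotypes. It took 65.4% and 65.1% of near-cis reads in the S4-S5 mutant and 58.5% and 58.4% in WT. The S4, S5 and S2 mutants averaged 61.0%, 61.6% and 57.4%, all below both S4-S5 mutant libraries. As a log2 ratio of telomeric over centromeric reads this was 0.92 and 0.90 in the S4-S5 mutant, against 0.49 and 0.49 in WT (exact p = 0.333). The median near-cis read on the centromeric side lay 44.0 and 43.3 kb away in the S4-S5 mutant and 58.0 and 58.0 kb away in WT. On the telomeric side the medians were 43.1 and 43.1 kb in the S4-S5 mutant and 57.3 and 57.3 kb in WT. Centromeric medians in the S4, S5 and S2 mutants were 45.3, 45.2 and 39.6 kb and telomeric medians 32.0, 50.4 and 50.4 kb, all nearer than in WT.

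To ask which intervals of the locus gained or lost share, near-cis reads were summed in 8 zones laid out from S2 and S4 and tested with edgeR, with all 10 promoter libraries in 1 fit. All 8 zones differed between the S4-S5 mutant and WT (100% called), 4 higher and 4 lower. The largest gain lay between the promoter and S4. The interval from the mask to 10 kb before S4 took 44.5% and 44.3% of near-cis reads in the mutant and 34.5% and 34.4% in WT. This was 1.29-fold higher in the mutant (edgeR adjusted p = 1.70e-12). The gain was uneven along the interval. The 10 kb from 139450001, beside the mask, took 18.1% and 18.2% in the mutant and 10.7% and 10.7% in WT. Farther on, the 10 kb from 139480001 and from 139500001 were higher as well. Those from 139470001 and 139490001 were lower, and that from 139460001 was not called. The 20 kb centred on S4, itself a mutated site in this line, took 6.04% and 6.02% in the mutant and 4.70% and 4.72% in WT, which was 1.28-fold higher (edgeR adjusted p = 2.71e-10). Neither group of libraries overlapped the other in these zones.

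Around S2 the differences were small on the near-cis scale. The 20 kb centred on S2 took 5.66% and 5.71% in the S4-S5 mutant, against 5.58% and 5.59% in WT, a log2 fold change of 0.03 (edgeR adjusted p = 0.00162). The interval from the S2 flank to the mask took 17.9% and 18.3% in the mutant, against 17.3% and 17.3% in WT, a log2 fold change of 0.07. The call between S2 and the mask was lost with a 20-kb mask (0.029, edgeR adjusted p = 0.303), and that zone's size was 0.18 with TMM factors, 0.21 with DESeq2 and 0.38 with chromosome 9 totals. The call at S2 was lost when the second S4-S5 mutant library was left out, at a log2 fold change of 0.02. The size at S2 moved with the scaling, to 0.14 with TMM factors, 0.17 with DESeq2 and 0.34 with chromosome 9 totals.

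The outer zones took less of the near-cis reads. Beyond 100 kb centromeric of S2 the share was 5.19% and 5.22% in the S4-S5 mutant and 9.43% and 9.43% in WT, a log2 fold change of -0.86 (edgeR adjusted p = 5.91e-13). From 10 to 100 kb centromeric of S2 it was 5.84% and 5.70% in the mutant and 9.23% and 9.28% in WT, a log2 fold change of -0.68. Beyond 100 kb telomeric of S4 it was 5.40% and 5.27% in the mutant and 8.89% and 8.89% in WT, a log2 fold change of -0.74. In each of these 3 zones the S4, S5 and S2 mutants were lower than WT as well, with log2 fold changes of -1.03 to -0.27, -0.63 to -0.47 and -0.67 to -0.57. The 3 zones were also lower in the S4-S5 mutant when reads were scaled to the chromosome 9 total, at -0.55, -0.37 and -0.43. The zone 10 to 100 kb telomeric of S4 was 9.49% and 9.51% in the mutant and 10.4% and 10.4% in WT, a log2 fold change of -0.13 that turned to 0.18 with chromosome 9 totals, 0.01 with DESeq2 and 0.08 with a 20-kb mask. Counted by covered fragment ends in place of reads, none of the 8 zones was called, with 0 at an unadjusted p under 0.05. That count had little room to move near the locus, as at the S2 bin, where 23 of 23 ends had reads in each library. Farther out it had room. From 200 to 500 kb, 31.6% to 37.7% of centromeric ends and 32.9% to 35.9% of telomeric ends had reads in the 4 libraries. The 3 outer zones that fell by -0.86, -0.68 and -0.74 in reads were at -0.13, 0.05 and 0.01 by covered ends.

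**Figure D1:**
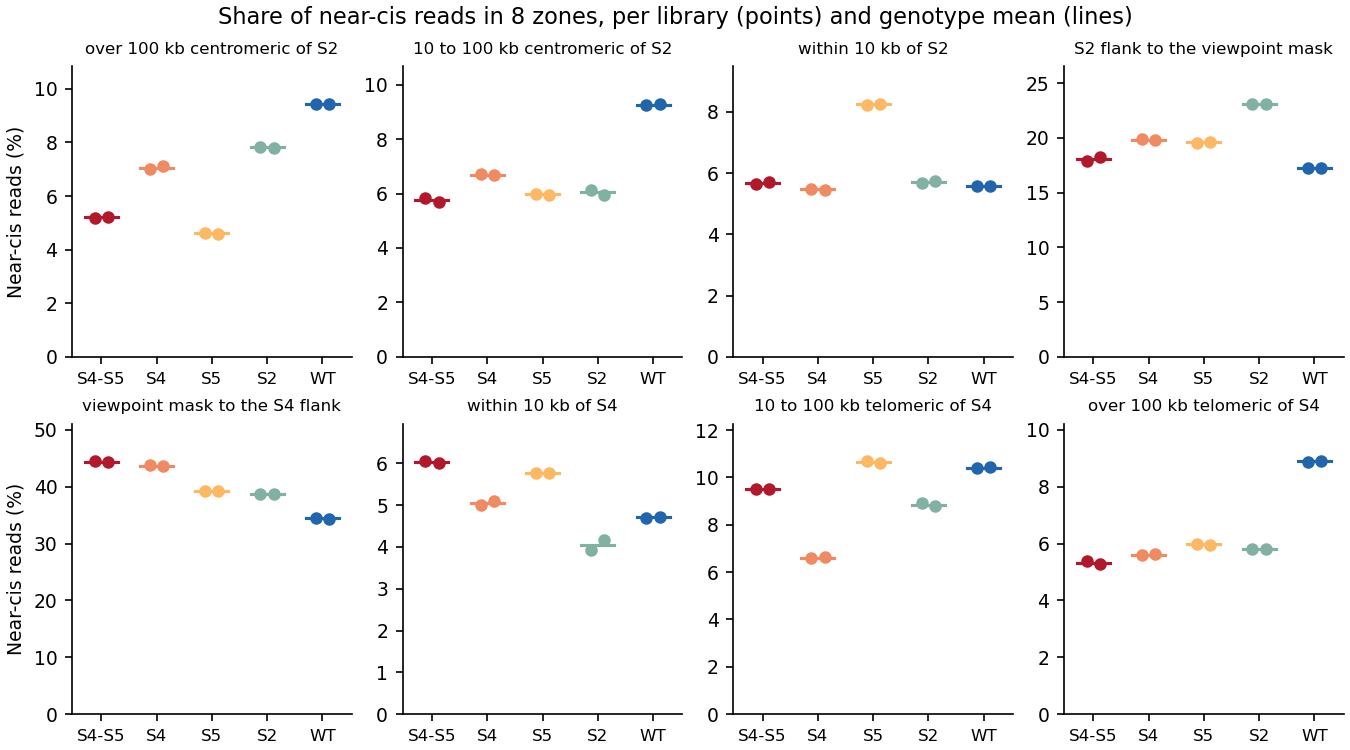
Share of near-cis reads (%) in 8 zones from the centromeric to the telomeric side, for each library (points) and genotype mean (lines), from the S4-S5 mutant at the left to WT at the right of each panel. The S4-S5 mutant is highest from the viewpoint mask to the S4 flank (44.4%, against 34.5% in WT) and within 10 kb of S4 (6.03%, against 4.71% in WT).

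Set against all 4 other genotypes, 4 of the 8 zones placed the S4-S5 mutant at the edge of the range, with a call against each genotype. Higher than in every other library were the mask-to-S4 interval and the 20 kb at S4. The mask-to-S4 interval averaged 44.4 ± 0.114% in the S4-S5 mutant and 34.5 ± 0.0740% in WT (SD, n = 2 each), with 43.7%, 39.2% and 38.7% in the S4, S5 and S2 mutants. The 20 kb at S4 averaged 6.03 ± 0.0186% in the S4-S5 mutant and 4.71 ± 0.0118% in WT (SD, n = 2 each), with 5.05%, 5.77% and 4.04% in the S4, S5 and S2 mutants. Lower than in every other library were the zone 10 to 100 kb centromeric of S2 and the zone beyond 100 kb telomeric of S4. The first averaged 5.77% in the S4-S5 mutant and 5.97% in the S5 mutant, the closest genotype, against 9.26% in WT. The other averaged 5.33% in the S4-S5 mutant and 5.61% in the S4 mutant, the closest genotype, against 8.89% in WT. In the mask-to-S4 interval the double mutant therefore lay near the S4 mutant (log2 fold change over it 0.02, edgeR adjusted p = 1.03e-04), and at S4 near the S5 mutant (0.06, edgeR adjusted p = 5.65e-05).

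Telomeric of S4 the double mutant was unlike the S4 mutant. The zone 10 to 100 kb telomeric of S4 averaged 9.50% in the S4-S5 mutant against 6.62% in the S4 mutant, while the S5 mutant had 10.6% and WT 10.4%. The log2 fold change of the S4-S5 mutant over the S4 mutant was 0.52 (edgeR adjusted p = 2.57e-12), and over the S5 mutant it was -0.16. At S2 the double mutant was unlike the S5 mutant. The 20 kb at S2 averaged 5.69% in the S4-S5 mutant against 8.25% in the S5 mutant, while the S4 mutant had 5.47% and WT 5.59%, with a log2 fold change of the S4-S5 mutant over the S5 mutant of -0.54 (edgeR adjusted p = 3.95e-11).

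Reads by distance showed the same shift in finer steps, here as shares of all reads outside the mask. From 5 to 10 kb on the telomeric side the share was 9.27% and 9.26% in the S4-S5 mutant and 3.64% and 3.70% in WT, or 2.53-fold higher. There the S4, S5 and S2 mutants averaged 10.8%, 8.49% and 9.08%, so all mutants exceeded WT. From 10 to 20 kb the telomeric share was 1.62-fold higher and the centromeric share 1.65-fold higher. From 20 to 50 kb the telomeric share was 1.18-fold higher, a smaller difference than in the next band. From 50 to 100 kb, the band that holds S4, it was 14.4% and 14.4% in the S4-S5 mutant and 9.54% and 9.55% in WT, or 1.51-fold higher. In that band the S5 mutant averaged 14.6% and the S2 mutant 13.4%, so the level was not particular to the double mutant. The centromeric band at the same distance, which holds S2, was 6.17% and 6.17% in the S4-S5 mutant and 5.80% and 5.69% in WT, or 1.07-fold higher.

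Past 100 kb the sides parted. From 100 to 200 kb the centromeric share was 3.35% and 3.30% in the S4-S5 mutant and 4.68% and 4.74% in WT, while the telomeric share was 7.40% and 7.41% in the mutant and 6.50% and 6.54% in WT. From 200 to 500 kb both sides were lower in the mutant, with means of 3.41% against 4.98% on the centromeric side and 3.69% against 5.25% on the telomeric side. From 500 kb to 20 Mb on the centromeric side the mutant's share was 0.554-fold to 0.597-fold WT's in each of 4 bands. Beyond 20 Mb on the long arm it was 1.94% in the mutant against 6.25% in WT, or 0.311-fold. Past the largest gap between fragment ends, on the side of the short arm, it was 0.222% in the mutant and 1.98% in WT. The S4, S5 and S2 mutants averaged 1.43%, 2.34% and 1.37% beyond 20 Mb, and 0.249%, 0.181% and 0.284% on the short arm side. They were below WT in the 4 bands from 500 kb to 20 Mb too, so these falls were not particular to the double mutant. The slope of log10 reads per fragment end on log10 distance was -1.19 in both mutant libraries and -0.93 in both WT libraries, with means of -1.16, -1.17 and -1.13 in the S4, S5 and S2 mutants.

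**Figure D2:**
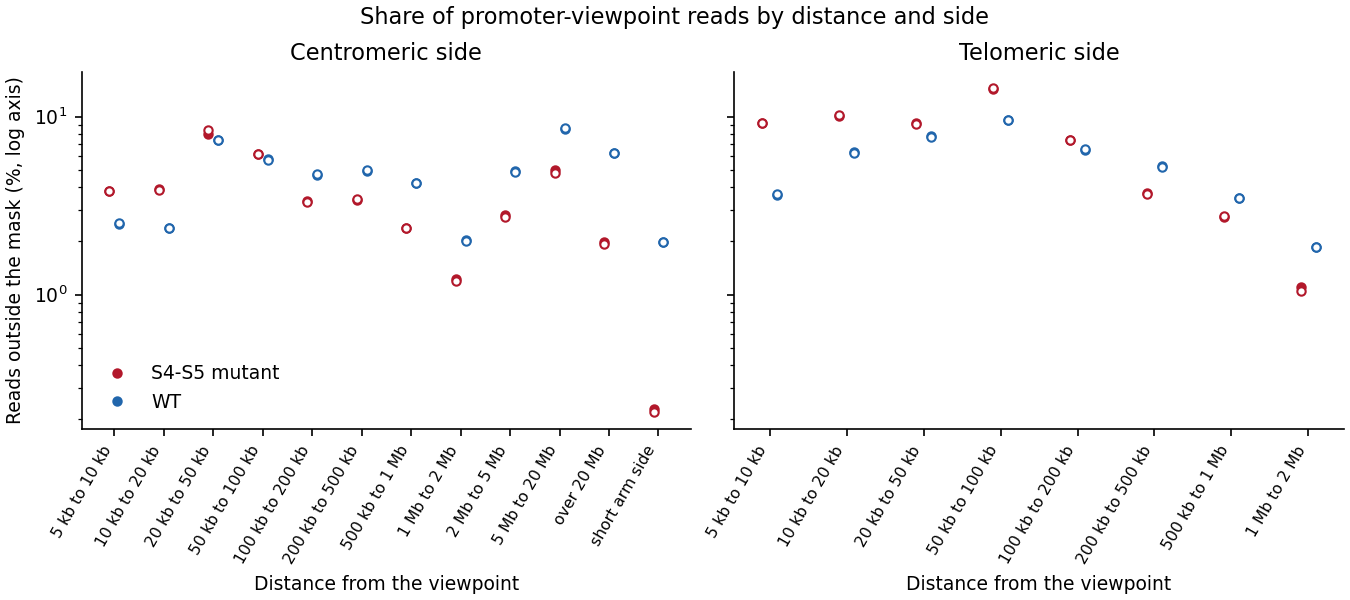
Share of all promoter-viewpoint reads outside the mask (%, log axis) in bands of distance from the viewpoint, for the 2 S4-S5 mutant libraries (red) and the 2 WT libraries (blue), with filled points for replicate 1 and open points for replicate 2. The mutant is above WT in every band up to 100 kb on the centromeric side and up to 200 kb on the telomeric side, and below WT in every farther band.

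In 10-kb bins, 84 of 96 near-cis bins differed between the S4-S5 mutant and WT by edgeR at an adjusted p under 0.05 (87.5% called), 15 higher (15.6%) and 69 lower (71.9%). The libraries of the 2 genotypes did not overlap in 89 bins (92.7%). The background is thus a difference in nearly every bin, and a call by itself said little of 1 place. The S4 mutant had 87 calls against the same WT libraries, the S5 mutant 90 and the S2 mutant 91. The median bin had a log2 fold change of -0.57, none of the bins was over 2-fold higher, and 29 were over 2-fold lower. The split moved with the scaling: 36 higher and 53 lower with chromosome 9 totals, 37 and 51 with TMM factors, 46 and 37 with DESeq2. Scaling moved the median bin to -0.26, -0.20 and 0.10 in these, so the changes of the main bins are also given relative to the median bin. Of the 20 bins within 100 kb of the viewpoint 9 were higher and 9 lower, and of the 76 farther bins 6 were higher and 60 lower. Counted by covered ends, 0 bins were called by edgeR, with 1 at an unadjusted p under 0.05.

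**Figure D3:**
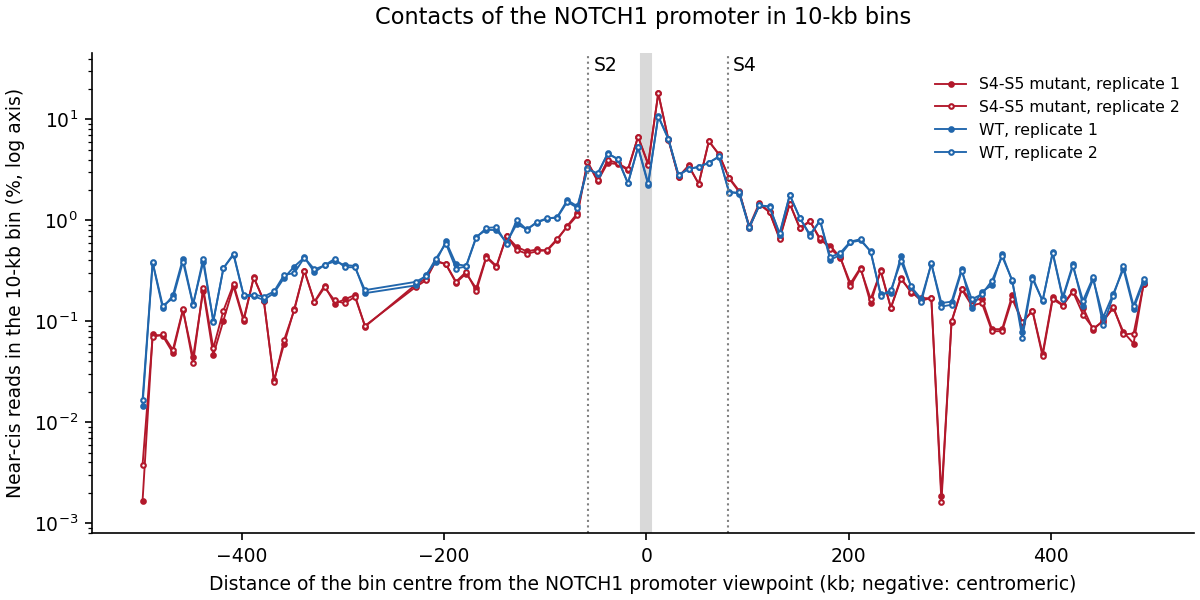
Near-cis reads per 10-kb bin (% of the library's near-cis reads, log axis) against the distance of the bin centre from the NOTCH1 promoter viewpoint (kb), for each S4-S5 mutant (red) and WT (blue) library. The grey band is the mask and dotted lines mark S2 and S4. Beyond 100 kb the mutant was lower than WT, past the test's threshold, in 60 of 76 bins.

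The bin holding S4, chr9:139520001-139530000, had 2.65% and 2.60% of near-cis reads in the S4-S5 mutant and 1.93% and 1.88% in WT. Both mutant libraries were above both WT libraries, with a log2 fold change of 0.47 ± 0.025 (SE, edgeR adjusted p = 1.15e-46), or 1.04 above the median bin. This bin ranked 6 of 96 by fold change. The S4, S5 and S2 mutants averaged 2.42%, 2.85% and 2.05% there, all above WT. The bin before it, from 139510001, had 4.47% and 4.52% in the S4-S5 mutant and 4.25% and 4.30% in WT (log2 fold change 0.07). The bin after it, from 139530001, had 1.96% and 1.91% in the mutant and 1.83% and 1.89% in WT and was not called (log2 fold change 0.05, edgeR adjusted p = 0.069).

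The bin holding S2, chr9:139380001-139390000, had 3.78% and 3.80% in the S4-S5 mutant and 3.26% and 3.22% in WT. The log2 fold change was 0.23 ± 0.019 (SE, edgeR adjusted p = 1.55e-24), or 0.80 above the median bin. With the S2 mutant in place of WT it was -0.15, and that genotype was the higher one. Both neighbours of the S2 bin were lower in the mutant on the near-cis scale. The bin from 139370001 had 1.17% and 1.12% in the mutant and 1.38% and 1.33% in WT, and the bin from 139390001 had 2.44% and 2.49% in the mutant and 2.86% and 2.91% in WT. Their log2 fold changes of -0.24 and -0.23 turned positive with chromosome 9 totals, TMM factors and DESeq2. Relative to the median bin they were 0.34 and 0.35 higher.

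Beside the viewpoint, the telomeric bin from 139450001 held the most reads of any bin, 18.1% and 18.2% in the S4-S5 mutant and 10.7% and 10.7% in WT. Its log2 fold change was 0.76 ± 0.0094 (SE, edgeR adjusted p = 2.27e-160), or 1.34 above the median bin. The S4, S5 and S2 mutants averaged 19.2%, 15.8% and 17.0% there. On the centromeric side the bin from 139430001 had 6.75% and 6.69% in the S4-S5 mutant and 5.28% and 5.32% in WT, a log2 fold change of 0.34. The unmasked remainder of the viewpoint's own bin, from 139440001, had 3.63% and 3.55% in the mutant and 2.25% and 2.35% in WT. That bin rests on only 4 fragment ends.

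Among the strongest WT contacts outside 20 kb, the bin from 139500001, on the promoter's side of S4, moved most. It had 6.10% and 6.05% in the S4-S5 mutant and 3.73% and 3.71% in WT, a log2 fold change of 0.71 ± 0.017 (SE, edgeR adjusted p = 5.89e-102), or 1.28 above the median bin. It ranked 3 of 96 by fold change. The S2 mutant averaged 6.30% there, the S5 mutant 5.11% and the S4 mutant 4.02%. The next bin towards the promoter, from 139490001, had 2.29% and 2.30% in the S4-S5 mutant and 3.39% and 3.36% in WT. Its log2 fold change of -0.56 was that of the median bin to within 0.018 and turned to 0.12 with DESeq2, and the S4, S5 and S2 mutants averaged 2.33%, 2.22% and 2.55%.

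The other strong WT bins moved less. The bin from 139460001, with 6.36% and 6.25% in the S4-S5 mutant and 6.45% and 6.33% in WT, was not called (edgeR adjusted p = 0.203), and lay 0.56 above the median bin. The bin from 139480001 had 3.49% and 3.45% in the mutant and 3.21% and 3.25% in WT, a log2 fold change of 0.10. Between S2 and the promoter, the bin from 139400001 had 3.70% and 3.96% in the mutant and 4.59% and 4.57% in WT. The bin from 139410001 had 3.60% and 3.68% in the mutant and 4.05% and 4.03% in WT. Their log2 fold changes of -0.26 and -0.15 turned positive with chromosome 9 totals, TMM factors and DESeq2, and lay 0.32 and 0.42 above the median bin.

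The largest rise of any bin was at chr9:139670001-139680000, 232 kb telomeric, with 0.320% and 0.311% in the S4-S5 mutant and 0.185% and 0.179% in WT. Its log2 fold change was 0.80 ± 0.064 (SE, edgeR adjusted p = 1.13e-26), or 1.37 above the median bin. The S5 mutant averaged 0.564% there and the S4 mutant 0.165%. The bin from 139050001, 388 kb centromeric, had 0.275% and 0.270% in the S4-S5 mutant and 0.177% and 0.183% in WT, and 0.464% on average in the S4 mutant. These were low-level contacts, each a small part of the share at S2 or S4.

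The largest falls lay in the outer parts of the window. The bin from 139730001, 292 kb telomeric, had 8 and 10 reads in the S4-S5 mutant, or 0.00187% and 0.00162%, and 0.151% and 0.140% in WT. Its log2 fold change was -6.35 ± 0.19 (SE, edgeR adjusted p = 1.87e-84), the S5 mutant averaged 0.101%, and the S4 and S2 mutants averaged 0.0136% and 0.00373%. The bin from 139070001 had 0.0259% and 0.0250% in the S4-S5 mutant and 0.190% and 0.197% in WT. The bin from 139790001 had 0.0834% and 0.0797% in the mutant and 0.462% and 0.438% in WT. The bins from 138940001 and 138950001, at the centromeric edge of the window, had log2 fold changes of -2.44 and -2.42. Relative to the median bin the 5 falls ran from -5.77 to -1.84. All of these were lower in the mutant in every library pair.

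Only 8 of the 96 bins placed both S4-S5 mutant libraries beyond all 8 other promoter libraries and were called against each of the 4 other genotypes (8.33% called), 2 higher and 6 lower. The higher ones were the viewpoint's own bin and the bin from 139300001, which had 0.699% and 0.699% in the S4-S5 mutant and 0.602% and 0.583% in WT. The lower ones lay on the centromeric side. The bins from 139350001 and 139360001, next to each other 88 and 78 kb away and just centromeric of S2, had 0.639% and 0.656%, and 0.880% and 0.862%, in the S4-S5 mutant. In WT the first had 1.07% and 1.06% and the other 1.58% and 1.52%. The nearest single mutant averaged 0.766% in the first (S5) and 1.35% in the other (S4). The bin from 139270001 had 0.212% and 0.199% in the S4-S5 mutant and 0.688% and 0.675% in WT, and the bin from 139130001 had 0.149% and 0.161% in the mutant and 0.391% and 0.416% in WT. The last of the lower ones were the bins from 139400001 and 139410001 given above. Neither the S4 bin nor the S2 bin was among the 8.

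Whether the double mutant differed from what the single mutants add up to on the log2 scale was tested as the S4 by S5 interaction, the change of the S4-S5 mutant over the S5 mutant less that of the S4 mutant over WT. It was called in 83 of 96 bins (86.5% called), 59 positive and 24 negative, while TMM factors gave 46 and 40 and DESeq2 40 and 46. The median interaction over the bins was 0.48, 0.12 and -0.19 in these. A change over WT shared by the S4, S5 and S4-S5 mutants enters the interaction with its sign reversed. The part of that in these values was not tested. At the S4 bin the log2 fold changes over WT were 0.47 in the S4-S5 mutant, 0.35 in the S4 mutant and 0.59 in the S5 mutant. The interaction was -0.47 ± 0.037 (SE, edgeR adjusted p = 7.78e-28). At the S2 bin they were 0.23 in the S4-S5 mutant, -0.08 in the S4 mutant and 0.73 in the S5 mutant, with an interaction of -0.42 ± 0.028 (SE, edgeR adjusted p = 2.13e-34). At both bins the double mutant lay between the single mutants. The interaction stayed negative at both with TMM factors and DESeq2, and relative to the median interaction it was -0.95 at S4 and -0.90 at S2. At the bin from 139500001 the fold changes over WT were 0.71 in the S4-S5 mutant, 0.11 in the S4 mutant and 0.46 in the S5 mutant. The interaction there was 0.13 ± 0.025 (SE, edgeR adjusted p = 3.98e-07), but -0.22 by TMM scaling and -0.53 by DESeq2, so its sign depended on the scaling. Counted by covered ends, the interaction was called in 0 bins by edgeR, with 3 at an unadjusted p under 0.05.

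**Figure D4:**
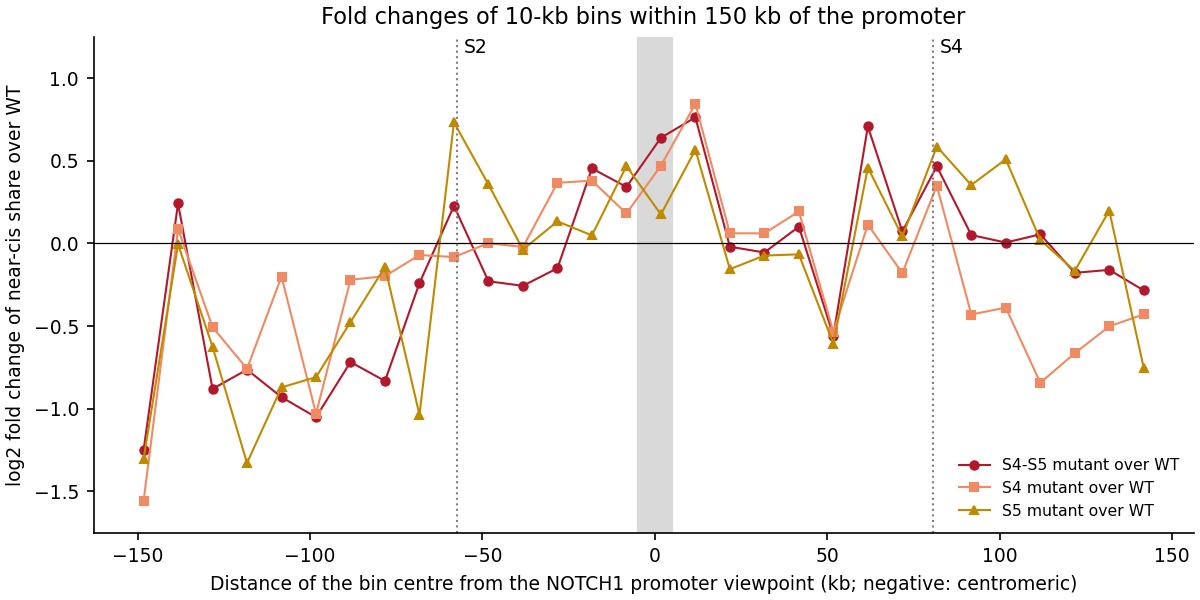
The log2 fold change of the near-cis share over WT against distance from the NOTCH1 promoter viewpoint (kb), for 10-kb bins within 150 kb in the S4-S5 mutant (red circles), S4 mutant (orange squares) and S5 mutant (brown triangles). All 3 share the WT libraries. At S4 the double mutant (0.47) lies between the S4 mutant (0.35) and the S5 mutant (0.59), and telomeric of S4 it runs above the S4 mutant.

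Against the single mutants themselves, which share no WT library, the S4-S5 mutant differed in 86 of 96 bins from the S4 mutant (89.6% called), 41 higher and 45 lower. It differed in 82 from the S5 mutant (85.4% called), 45 higher and 37 lower, and in 87 from the S2 mutant (90.6% called). The median bin had log2 fold changes of -0.07 over the S4 mutant and 0.07 over the S5 mutant, closer to 0 than the -0.57 over WT. As a description, the mean 10-kb profile of the S4-S5 mutant had a Pearson r of 0.92 with the S4 mutant, 0.91 with WT, 0.85 with the S5 mutant and 0.79 with the S2 mutant, over 97 bins that share the decay with distance. The order depended on the bin size. In 1-kb bins r was 0.61 with the S4 mutant, 0.69 with the S5 mutant, 0.60 with the S2 mutant and 0.50 with WT, the lowest.

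Single fragment ends showed how few captured places lay behind these shares. Of 3008 near-cis ends, 1555 and 1582 had a read in the S4-S5 mutant libraries and 1628 and 1661 in the WT libraries, although the mutant libraries held more reads. Ends covered in both libraries numbered 1477 in the mutant and 1520 in WT, and 1050 were covered in all 4, which is 71.1% of the mutant's and 69.1% of WT's. Ends covered in both mutant libraries and in no WT library numbered 260 and held 2.74% of the mutant's near-cis reads. Ends covered in both WT libraries and in no mutant library numbered 348 and held 8.04% of WT's. The 100 most covered ends held 47.9% and 47.8% of near-cis reads in the mutant, against 38.1% and 37.9% in WT, and 58 of them were the same ends in both genotypes.

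**Figure D5:**
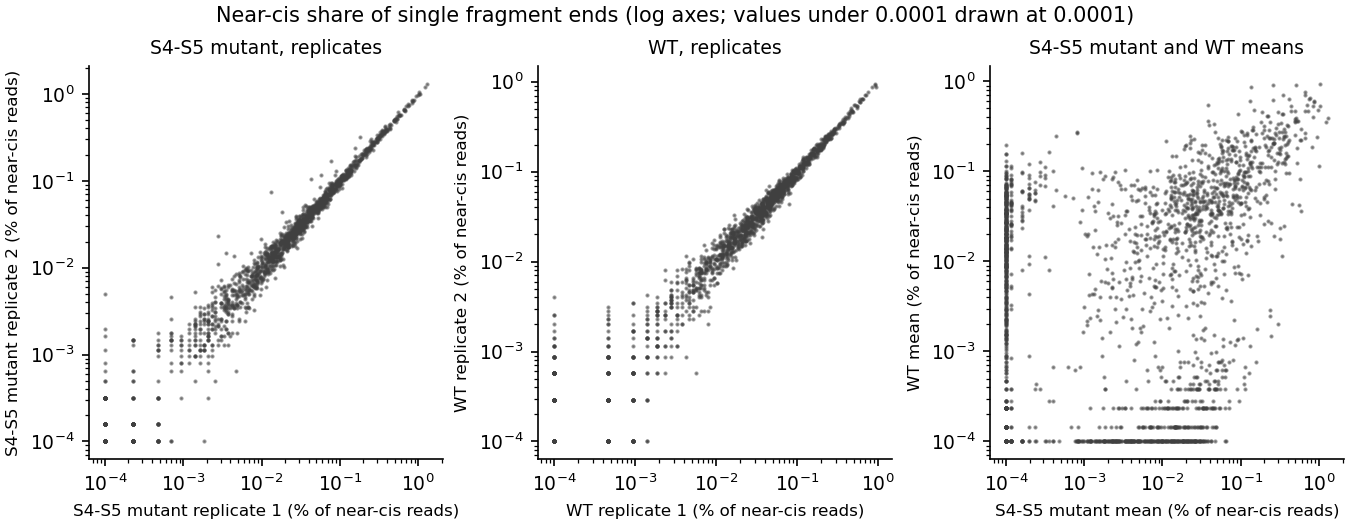
Share of near-cis reads at single fragment ends (%, log axes): S4-S5 mutant replicate 1 against replicate 2, WT replicate 1 against replicate 2, and the S4-S5 mutant mean (horizontal) against the WT mean (vertical). Replicates lie near the diagonal (Pearson r 0.99 in the mutant and 0.98 in WT), while the genotypes scatter widely (r 0.28).

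The replicates of 1 genotype shared their ends far more closely than the genotypes did. Across 2071 ends with reads, Pearson's r was 0.99 between the mutant replicates, 0.98 between the WT replicates and 0.28 between the genotype means. Between the genotypes r was 0.50 in 1-kb bins, 0.78 in 5-kb bins, 0.91 in 10-kb bins and 0.99 in 50-kb bins. These are descriptions across places that share libraries, so they carry no p. The chi-square of the replicates' counts was 2.33 per degree of freedom in the mutant and 1.27 in WT. As reads were amplified without molecular identifiers, that excess over sampling noise does not show how far the replicates are separate samples.

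The ends with the most reads differed too. In the S4-S5 mutant the top end lay on the fragment chr9:139436518-139436904, 6.4 kb centromeric, with 1.28% and 1.29% of near-cis reads in the mutant and 0.392% and 0.389% in WT. The next lay on chr9:139451997-139452244, with 1.24% and 1.21% in the mutant and 0.358% and 0.346% in WT. The fragment chr9:139456978-139457306, 13.7 kb telomeric, had 1.01% and 0.992% in the mutant and 0.119% and 0.114% in WT, or 8.62-fold higher. The fragment from 139449002 was 1.94-fold higher in the mutant. In WT the top end, on chr9:139448117-139448460, had 1.05% and 1.01% in the mutant and 0.927% and 0.939% in WT, so it ranked high in both. The end on chr9:139512773-139513002, 69.5 kb telomeric and on the promoter's side of S4, had 0.251% and 0.264% in the mutant and 0.931% and 0.909% in WT. The end on chr9:139462905-139463080 had 0.140% and 0.132% in the mutant and 0.854% and 0.883% in WT, or 6.37-fold higher in WT. The remaining WT leaders, from 139459027 and 139467326, were 1.80-fold and 1.16-fold higher in WT. All of these ends were of the non-blind type, whose fragments hold a site of the second enzyme.

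Beyond 500 kb, the tested reads were 90042 and 126750 in the S4-S5 mutant and 105958 and 175165 in WT, on 2011 and 2188 covered ends in the mutant and 3154 and 3346 in WT. Of 97 bins of 1 Mb, scaled to these far reads, 84 differed (86.6% called by edgeR), 16 higher (16.5%) and 68 lower (70.1%), and the libraries did not overlap in 89 (91.8%). Scaled to the chromosome 9 total, 2 were higher and 95 lower. Counted by covered ends, 35 were called, 6 higher and 29 lower. The bin with the most far reads in the mutant lay next to the locus. It was chr9:140000001-141000000, towards the telomere, with 19.7% and 20.0% of far reads in the S4-S5 mutant and 14.6% and 14.6% in WT, a log2 fold change of 0.44 (edgeR adjusted p = 2.38e-91). It was higher by covered ends as well (log2 fold change 0.43, edgeR adjusted p = 8.64e-07), and the other mutants averaged 18.0% (S4), 14.4% (S5) and 17.1% (S2). This bin was singled out after its values were seen.

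The largest far rises were in the bin from 72000001, with 0.287% and 0.308% in the S4-S5 mutant and 0.0717% and 0.0742% in WT (log2 fold change 2.02), and in the bin from 94000001, with 1.30% and 1.23% in the mutant and 0.415% and 0.408% in WT (1.62), both higher under each read scaling tried. The bins from 139000001, 123000001 and 122000001 followed at 0.82, 0.80 and 0.77, and with chromosome 9 scaling these 3 turned to -0.13, -0.15 and -0.18. The bin from 139000001 held only the ends over 500 kb from the viewpoint, at its telomeric edge, and was not a full 1 Mb. By covered ends none of these 5 bins was called. The bin from 72000001 had reads on 3 and 4 ends in the S4-S5 mutant and on 9 and 7 in WT. The bin from 94000001 had reads on 14 and 14 ends in the mutant and on 15 and 22 in WT. The largest falls were in bins with almost no mutant reads. The bin from 20000001 had 0 reads in both mutant libraries against 72 and 107 in WT, on 7 and 8 covered WT ends. The bin from 11000001 had 0 in both against 36 and 90 in WT, on 6 and 7 ends. Counted as independent reads, with 3 reads over both mutant libraries as the floor, these were at least 46.0-fold and 32.4-fold lower. A covered far end held 44.8 and 57.9 reads on average in the mutant libraries, so these bounds do not hold for captured ends. The bins from 77000001, 27000001 and 85000001 had 1 mutant read each against 550, 496 and 485 in WT. The ratio of WT over the mutant at 77000001 was 424 (exact 95% interval 75.8 to 16783, counting error only). Most of these falls were shared by the other mutants. The S4, S5 and S2 mutants had no reads at 11000001, and averaged 0.0485%, 0% and 0% at 20000001, against 0.0645% in WT. At 77000001, 27000001 and 85000001 none of them averaged over 0.0185%, against 0.196%, 0.175% and 0.170% in WT. In all, 18 of the 97 bins placed the S4-S5 mutant beyond every other library with a call against each genotype (18.6% called), 8 higher and 10 lower.

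Read from the other ends, the promoter's own bin was higher in the mutant by a size that depended on the scaling. From the S2 viewpoint, where 84.2% of 10-kb bins were called, the bin from 139440001 had 2.15% and 2.11% of near-cis reads in the S4-S5 mutant and 1.95% and 1.95% in WT, a log2 fold change of 0.13 ± 0.035 (SE, edgeR adjusted p = 0.00654). From the S4 viewpoint, where 88.7% were called, it had 2.46% and 2.49% in the mutant and 2.23% and 2.41% in WT, a log2 fold change of 0.09 ± 0.038 (SE, edgeR adjusted p = 0.031). With TMM factors and DESeq2 these were 0.47 and 0.54 from S2, and 0.33 and 0.36 from S4. The S4-viewpoint call was lost when either mutant library or the first WT library was left out. From the S4 viewpoint the S2 bin had 10.1% and 10.2% in the S4-S5 mutant and 5.98% and 5.79% in WT, a log2 fold change of 0.78 (edgeR adjusted p = 4.18e-15). Read the other way, from the S2 viewpoint, the S4 bin had 4.89% and 4.96% in the S4-S5 mutant and 5.32% and 5.29% in WT, a log2 fold change of -0.11 (edgeR adjusted p = 0.00435). That direction depended on the scaling, as it was 0.24 by TMM scaling and 0.31 by DESeq2, whereas from S4 the S2 bin was positive in all 3, at 1.02 and 1.05 by the other scalings. Relative to the median bin of its own viewpoint the difference was 0.15 from S2 and 1.21 from S4.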

How the data were processed

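4C-seq libraries of K562 cells were analysed from the deposited tables, which hold whole read counts per DpnII fragment end of chromosome 9 in hg19, deposited by the authors without normalization, per the file headers. Deposited signal columns were not used. Per the labels' protocols, cells were fixed in 2% formaldehyde and 200 ng of 4C template went into 16 PCR cycles, and no molecular identifiers are named. Reads at 1 end are therefore not independent, and intervals cover counting error only. deepTools and hg19 are named in the submitters' processing notes. No source used here gives the aligner or the filters.

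Ends within 5 kb of the viewpoint were masked. Ends up to 500 kb away were summed in 10-kb bins with a mean of 10 or more reads, and in 8 zones. Farther ends were summed in 1-Mb bins, so a bin that reaches into the near-cis window holds only its part outside that window. edgeR 4.0.16 (R 4.3.3) quasi-likelihood F tests used all 10 libraries of a viewpoint in 1 fit, with near-cis or far totals as library sizes, Benjamini-Hochberg adjustment over the features and a threshold of 0.05. Single values per library were compared by an exact permutation test (SciPy 1.17.1). Alternatives included DESeq2 1.42.0, TMM factors, chromosome 9 totals, other masks, windows and bins, covered ends, and each library left out.

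Named bins were those holding or beside S2, S4 and the viewpoint, the 8 strongest in WT outside 20 kb, the 5 most changed each way, and the 3 largest interactions each way. Members and lists were chosen with earlier results of these data known, and the count of bins beyond all other libraries was chosen after seeing them. On simulated data of the 10-kb bins, 10 of 10 bins changed by a log2 of 0.5 and 10 of 10 changed by 1.0 were called, with 2 of 76 unchanged ones. Those data changed 20 of 96 bins, as many up as down, with no amplified reads. Nearly all real bins differed, so the simulation does not give the error rate of the real comparison. Replicate numbers were not treated as pairs, except in the fit with a replicate block.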

Additional observations from a re-analysis of the deposited data

Results flagged for a closer look

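Each of the following 10-kb bins was called in the S4 by S5 interaction of the edgeR fit across all bins. A change over WT shared by the mutants enters that test with its sign reversed, and its part was not tested. Of all bins, 86.5% passed this test. The sign at each bin given here was the same with TMM factors and DESeq2.

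Positive values came where the S5 mutant held almost no reads. In the bin from 138970001 the interaction was 8.48 on the log2 scale (SE 0.349, edgeR adjusted p = 1.79e-62), with mean near-cis shares of 0.0503% in the S4-S5 mutant and 0.174% in WT, and of 0.0273% (S4) and 0.000852% (S5) in the single mutants. In the bin from 139840001 it was 5.53, with 0.169% in the S4-S5 mutant and 0.478% in WT, and 0.185% (S4) and 0.00937% (S5) in the single mutants. In the bin from 139020001 it was 6.35, with 0.114% in the S4-S5 mutant and 0.335% in WT, and 0.0696% (S4) and 0.00681% (S5) in the single mutants.

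Negative values came where the double mutant was below what both single mutants add up to. The interaction was -1.96 in the bin from 139140001, with 0.157% in the S4-S5 mutant and 0.352% in WT, and 0.440% (S4) and 0.484% (S5) in the single mutants. It was -1.60 in the bin from 139780001, with 0.0815% in the S4-S5 mutant and 0.240% in WT. In the bin from 139730001, where the mutant had 8 and 10 reads, it was -2.44 (SE 0.390, edgeR adjusted p = 2.99e-09). At the S4 bin, from 139520001, it was -0.47, and at the S2 bin, from 139380001, it was -0.42. Counted by covered ends, the interaction was called in 0 bins by edgeR, with 3 at an unadjusted p under 0.05.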

How the results depend on the processing

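The count of called 10-kb bins was 84 of 96, and 80 to 86 of 96 when 1 library was left out. Other windows and bin sizes test other sets of bins: 45 of 49 were called in a 250-kb window, 172 of 195 in a 1-Mb window, 164 of 189 with bins of 5 kb and 46 of 49 with bins of 20 kb. Counted by covered ends, 0 bins, 0 zones and 0 interactions were called, and 35 of the 1-Mb bins. Bins of 5 Mb gave 21. The log2 fold changes by covered ends were 0.068 at the S2 bin and 0.087 at the S4 bin, neither called, but nearly all ends there had reads in each library (23 of 23 at S2, 37 to 38 of 40 at S4), so this count could hardly change. The sources used here do not state whether replicate numbers pair the libraries. Same-numbered deviations of the S4-S5 mutant and WT had r = 0.16, with -0.09 to 0.40 over genotype pairs, which cannot settle it. The fit with a replicate block called 84 bins, 8 zones, 84 1-Mb bins and 84 interactions, with 0.23 at the S2 bin and 0.47 at the S4 bin. Without 1 library, the 1-Mb count was 82 to 83, the interaction count 83 to 85, the zones 7 to 8, the S2 bin 0.22 to 0.24, the S4 bin 0.45 to 0.48, and the promoter bin 0.11 to 0.14 from S2 and 0.037 to 0.15 from S4, where the call was lost in 3 of 4 cases. The near-cis difference was 15.5 points with a 20-kb mask and 14.6 with non-blind ends, against 16.1. The difference within 50 kb was 1.86, 7.80 and 7.98 with the mask, non-blind ends and capped ends, and the telomeric over centromeric log2 difference was 0.37, 0.34 and 0.44.

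Directions turned as follows, in log2 fold change, and the cause was not tested. With the S2 mutant in place of WT, which changes the reference, the S2 bin was at -0.15, the zones within 10 kb of S2, from S2 to the mask and 10 to 100 kb telomeric of S4 were at -0.0050, -0.35 and 0.10, and the bins from 139390001, 139530001, 139430001, 139500001 and 139050001 were at 0.58, -0.35, -0.22, -0.052 and -0.14. The bins from 139070001, 139790001, 138940001, 138970001, 139840001, 139140001 and 139780001 were then at 2.74, 3.17, 5.94, 5.03, 4.48, 1.46 and 1.03, and the 1-Mb bins from 139000001 and 27000001 at -0.51 and 1.83. With TMM factors, the bins from 139370001, 139390001, 139460001, 139400001 and 139410001 were at 0.14, 0.15, 0.36, 0.12 and 0.23. With DESeq2 these were at 0.43, 0.44, 0.65, 0.42 and 0.52, the bin from 139490001 at 0.12 and the zone 10 to 100 kb telomeric of S4 at 0.012. With chromosome 9 totals the same 5 bins were at 0.072, 0.083, 0.29, 0.056 and 0.16, that zone at 0.18, and the 1-Mb bins from 139000001, 123000001 and 122000001 at -0.13, -0.15 and -0.18. With a 20-kb mask that zone was at 0.077, and the bins from 139460001 and 139410001 at 0.25 and 0.060. A 250-kb window put the bin from 139510001 at -0.022, a 1-Mb window put the bin from 139460001 at 0.053, capped ends put it at 0.098, and non-blind ends put the bin from 139410001 at 0.017. By covered ends, the zones 10 to 100 kb centromeric of S2, 10 to 100 kb telomeric of S4 and over 100 kb telomeric of S4 were at 0.050, 0.012 and 0.014. By the same measure the bins from 139370001, 139430001, 139400001, 139410001, 139490001, 139730001, 138940001, 139020001 and 139780001 were at 0.16, -0.029, 0.045, 0.045, 0.068, 0.065, 0.58, 0.48 and 0.067, and the 1-Mb bins from 72000001, 123000001 and 122000001 at -0.54, -0.28 and -0.075. Over all settings, 87 of 110 values of the main comparisons and 547 of 653 values of named zones and bins were labelled the same as the main setting. For a count, this meant a similar number of calls, whatever their direction. For a per-library value, it meant the same sign and a shift under 1 SD. For a single zone or bin, it meant the same sign and call, or a change of sign with no call in either setting.

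Precision rests on 2 libraries a genotype, on few covered ends and on reads without molecular identifiers. Shares of 1 total move together, so a rise in 1 interval lowers the others. How far the masked end that set the WT libraries apart moved these contrasts was not tested.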
